A study of Mus musculus with 6 samples.

Results

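The genes described here encode the translation initiation and elongation factors of the mouse, with the kinases and binding proteins that carry the same names. A gene was taken as a member where its name began with Eif1 to Eif6, Eef1 or Eef2, where it was not named as a pseudogene, and where its counts summed to at least 60 over the 6 libraries. Of 34745 genes in the count table, 72 names began this way, 7 were pseudogene names, 4 were under the minimum and 61 were members. All 61 passed the filter on low counts and were tested.

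RNA was sequenced from monocytic myeloid-derived suppressor cells (M-MDSCs), immature myeloid cells that restrain T cells. The WT libraries came from C57BL/6 mice and the mTOR-/- libraries from Lyz-mTOR mice, which carry floxed mTOR alleles and a Cre recombinase driven by the lysozyme promoter of myeloid cells. Cells outside that lineage keep mTOR. Bone marrow cells of both groups were cultured for 7 days with GM-CSF and IL-6 at 50 ng/ml each and then sorted, with 3 libraries per group. Mice numbered 3 per group, but the sources used here do not give their age or sex, or whether each library came from 1 of them. The paper describes its WT C57BL/6 mice as purchased, apart from the Lyz-Cre and floxed mTOR lines. By that description Cre and the loss of mTOR fall in the same group, and their effects cannot be told apart. The p-values below measure the spread between libraries. Every library held both Y-linked RNA and Xist, an RNA of female cells, as given below. Cells of 1 mouse would not be expected to hold both, so the spread between libraries cannot be taken as a spread between animals.

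Initiation factors bring the small ribosomal subunit, the initiator tRNA and the capped mRNA together, and elongation factors then deliver each aminoacyl tRNA and move the ribosome along. The kinase mTOR acts on this machinery through protein: it phosphorylates the eIF4E-binding proteins, which otherwise hold eIF4E away from eIF4G, and through S6 kinase it restrains the kinase of eEF2. mTOR also promotes the translation of mRNAs that start with a terminal oligopyrimidine (TOP) tract, a C followed by a run of pyrimidines, which many ribosomal protein and elongation factor mRNAs carry. RNA counts show transcript amounts and say nothing of phosphorylation or of how many ribosomes an mRNA holds.

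Library totals lay between 12317507 and 12903191 gene counts in mTOR-/- and between 14066578 and 14768126 in WT. Mtor itself, counted over its whole length, had 883, 983 and 908 counts in mTOR-/- and 980, 875 and 929 in WT (log2 fold change 0.15, SE 0.11, edgeR adjusted p = 0.442), and a whole-gene count does not single out the floxed exons. The paper reports that loss of mTOR from MDSCs was verified separately, in a supplementary figure not read here. Replicate 3 of mTOR-/- had the lowest correlations of log2 CPM with the others, at 0.934 to 0.955. Of the marker lists, the monocyte list summed to 2694 to 3125 CPM (counts per 1e6 gene counts) in mTOR-/- and 4066 to 5773 in WT. Of its 9 genes 4 were called: Csf1r and Cd14 rose, and Ly6c2 and Lyz2 fell, while Cx3cr1 was too low to be tested. Lyz2, a lysozyme gene as is the source of the Cre promoter, carried that gap, at 903 to 1196 CPM against 2327 to 3910, and without it the list summed to 1792 to 1970 in mTOR-/- and 1739 to 1943 in WT, which overlap. The neutrophil list summed to 1118 to 1369 in mTOR-/- and 1016 to 1330 in WT. Of its 11 genes 3 were called higher (Ly6g, S100a8 and Csf3r) and 2 lower (Ltf and Ngp). Ly6g, which the paper's definition of M-MDSCs excludes, read 14.1, 10.7 and 15.1 CPM in mTOR-/- and 0.853, 2.39 and 5.06 in WT (edgeR adjusted p = 0.0365). The dendritic list summed to 194 to 266 against 68.4 to 158 CPM. Of its 8 genes 5 were tested, with Ccr7 alone called (higher), and Siglech was at 0. The mast cell and basophil list summed to 357 to 450.4 against 1125 to 1209, with 3 of 6 genes lower (Mcpt8, Cpa3 and Gata2). The macrophage list summed to 536 to 658 against 662 to 745 CPM, with 0 called of the 5 genes tested out of 8 listed. The lymphoid list stayed at 4.31 CPM or less, with Cd3e, Cd4, Cd8a and Ncr1 at 0, and the erythroid list at 10.7 CPM or less. The part of these marker differences in the values below was not tested. In such bulk libraries, fewer cells of a type and less RNA per cell cannot be told apart.

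Start windows of 8 members are shown first, because they hold a pyrimidine tract at the annotated start or belong to the genes the results turn on. Each holds 30 bases of the transcribed strand, 10 before and 20 from the RefSeq start on GRCm38.p6, and capitals mark a C with at least 4 pyrimidines after it that begins within 3 bases of that start.
Eif2s3x, chrX:94212632-94212661, minus strand: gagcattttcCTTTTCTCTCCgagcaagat
Eif2s3y, chrY:1010585-1010614, plus strand: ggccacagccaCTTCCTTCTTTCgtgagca
Eif3f, chr7:108934405-108934434, plus strand: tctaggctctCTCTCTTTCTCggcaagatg
Eef1a1, chr9:78481705-78481734, minus strand: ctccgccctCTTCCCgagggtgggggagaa
Eef2, chr10:81176621-81176650, plus strand: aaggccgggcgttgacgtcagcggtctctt
Eef1b2, chr1:63176821-63176850, plus strand: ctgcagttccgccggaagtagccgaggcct
Eif4b, chr15:102073763-102073792, plus strand: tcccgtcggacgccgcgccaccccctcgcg
Eif4a2, chr16:23107458-23107487, plus strand: gaaaccccgtaggagcagggcggccgagga
Of the 61 members, 49 had a RefSeq start window, and 10 of these (20.4%) held a tract, against 13.5% of all genes in the same table. Eif2s3x and Eif2s3y, the X- and Y-linked copies of 1 gene, both held a tract of over 10 bases. Of the 9 members long known as TOP mRNAs, 5 had a window and 2 of them, Eef1a1 and Eif3f, held a tract at the annotated start. A window with or without a tract says only which letters stand at the annotated start. Whether the mRNAs of these cells begin there was not tested, so a marked tract need not be a TOP tract.

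Across all 61 members the levels moved little. At an edgeR adjusted p under 0.05, 2 members rose in mTOR-/- M-MDSCs, Eif2s3y and Eif4a2, and 0 fell, and no member passed with a fold change of 2. Of all 12537 genes tested, 4.04% were called, 2.18% higher and 1.87% lower, and 1.69% with a fold change of 2. DESeq2 also called Eef1a1, Eef1g, Eif2s3x and Eif3h lower, while it called 9.12% of all genes. At an unadjusted p under 0.05, edgeR gave 4 members higher and 12 lower, against 11.7% of all genes higher and 9.52% lower.

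The members' log2 fold changes (mTOR-/- over WT) ran from -0.64 for Eif4e to 0.62 for Eif2s3y. Below 0 lay 45 of 61 (73.8%), against 49.4% of all genes, and the median was -0.14 against 0.00. The median SE of a member's log2 fold change was 0.12. The groups did not overlap in 21 members (34.4%), against 28.4% of all genes. Of these members 4 were higher and 17 lower, while 14.5% of all genes were higher and 13.9% lower without overlap. Among the 3455 genes between the members' lower and upper quartile of CPM, 32.1% did not overlap, 53.1% lay below 0 and the median was -0.02. Members share libraries and are not independent of each other, so these counts describe the family and carry no test.

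**Figure D1:**
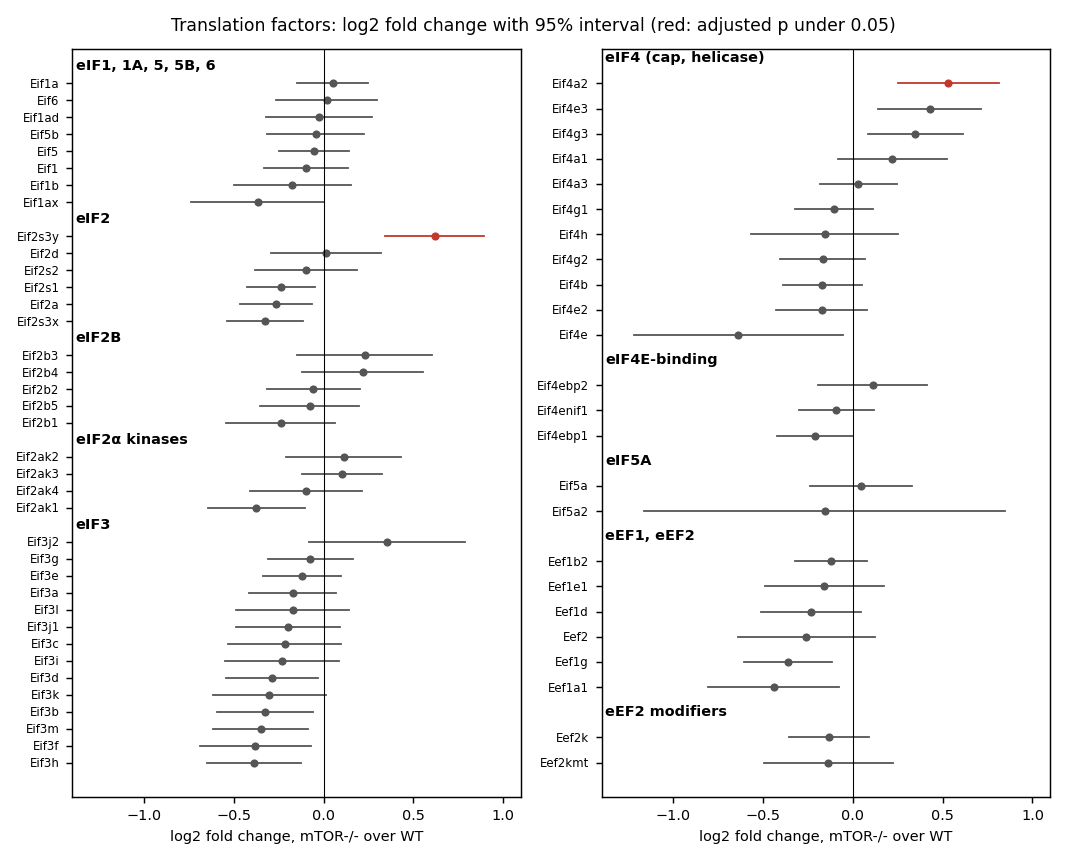
The horizontal axis gives each member's log2 fold change of mTOR-/- over WT from edgeR, with its 95% interval as a line, grouped by role and ordered within a role; red marks an adjusted p under 0.05. Eif2s3y (0.62) and Eif4a2 (0.53) are red, the 6 elongation factors and 13 of 14 eIF3 subunits lie left of 0, and the widest interval belongs to the low Eif5a2.

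The eIF2 complex carries the initiator tRNA to the small subunit, and its gamma subunit is encoded by a gene on X and a gene on Y. Eif2s3y (ENSMUSG00000069049, Y-linked) stood at 67.2, 64.5 and 81.9 CPM in mTOR-/- replicates 1 to 3 and at 47.9, 46.3 and 45.0 in WT. Every mTOR-/- library lay above every WT library. The means were 71.2 ± 9.36 and 46.4 ± 1.45 CPM (SD, n = 3), a log2 fold change of 0.62 (SE 0.12, edgeR adjusted p = 0.0257). The call was lost without mTOR-/- replicate 1 and without any 1 of the WT libraries, where the edgeR adjusted p reached 0.131. In those fits 1.35% to 2.24% of all genes were called, against 4.04% with all libraries.

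Its X-linked copy Eif2s3x (ENSMUSG00000035150) went the other way, at 88.0, 93.2 and 86.9 CPM in mTOR-/- and 119, 106 and 111 in WT. The groups did not overlap, and the log2 fold change was -0.32 (SE 0.09, edgeR adjusted p = 0.092), short of the threshold. The adjusted p was 0.0454 with DESeq2.

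Because Eif2s3y exists only on the Y chromosome, the other genes that tell male from female cells were read beside it. All 6 libraries held both Y-linked RNA and Xist, the RNA of the inactive X of female cells. Neither a male nor a female mouse would be expected to give both, so the libraries are not read as single animals. Xist had 17397, 18042 and 29393 counts in mTOR-/- and 16944, 12680 and 11521 in WT (log2 fold change 0.81, SE 0.21, edgeR adjusted p = 0.0678). The Y-linked Ddx3y gave 0.22 (adjusted p = 0.333), Kdm5d 0.36 (0.304) and Uty -0.02 (0.967) by edgeR. Of the 4 Y-linked genes, Eif2s3y alone was called, and whether it differed from the other 3 was not tested. The part that the mix of male and female cells has in the Eif2s3y and Eif2s3x values was not tested.

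**Figure D2:**
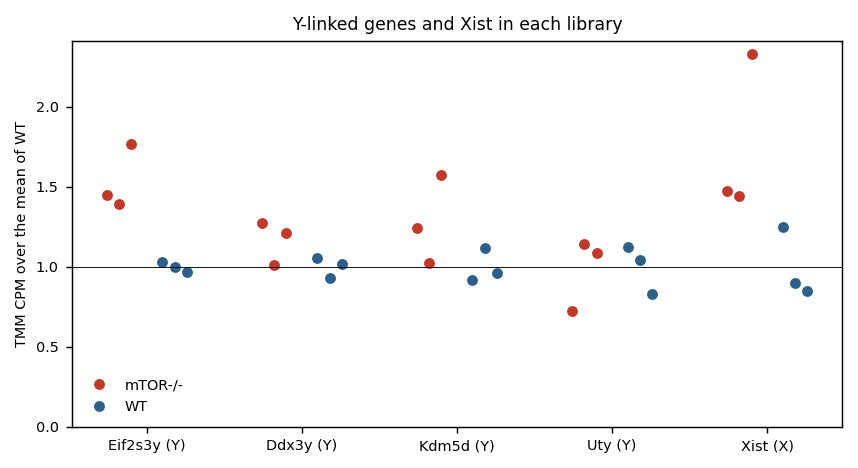
The vertical axis gives TMM-normalized CPM of each library divided by the mean of the 3 WT libraries, for 4 Y-linked genes and Xist; red points are mTOR-/- and blue points WT libraries, replicates 1 to 3 from left. The groups are apart for Eif2s3y and Xist and overlap for Ddx3y, Kdm5d and Uty, and mTOR-/- replicate 3 is the highest for Xist.

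Among the other eIF2 genes, Eif2s1 encodes the subunit that the stress kinases phosphorylate. It read 127, 131 and 132 CPM in mTOR-/- and 149.9, 149 and 160.4 in WT, with no overlap, but its log2 fold change of -0.24 did not pass (edgeR adjusted p = 0.157). Eif2a, an unrelated protein that can also deliver initiator tRNA, gave -0.27 (edgeR adjusted p = 0.132). Eif2s2 and Eif2d gave -0.10 and 0.01 and overlapped.

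The 5 subunits of eIF2B, the factor that recharges eIF2 with GTP, split 2 above and 3 below 0, with 0 called. Eif2b1 gave -0.24 (edgeR adjusted p = 0.347) and Eif2b4 0.22 (edgeR adjusted p = 0.437), and in each the groups did not overlap. Eif2b4 read 21.2, 22.3 and 22.6 CPM in mTOR-/- against 16.8, 20.9 and 19.2 in WT.

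The 4 kinases that phosphorylate eIF2α and so lower initiation were each tested, with 0 called by edgeR or DESeq2. At an unadjusted p under 0.05, edgeR gave 1 lower, as were 9.52% of all genes. Eif2ak1 (HRI), which senses heme, read 67.6, 79.1 and 61.5 CPM in mTOR-/- and 85.2, 87.6 and 97.1 in WT. The groups did not overlap, and the log2 fold change was -0.37 (SE 0.12, edgeR adjusted p = 0.123). Eif2ak2 (PKR), which senses double-stranded RNA, gave 0.11 with a 95% interval of -0.21 to 0.43. Eif2ak3 (PERK), of the endoplasmic reticulum, gave 0.10 (-0.12 to 0.32), and Eif2ak4 (GCN2), which senses uncharged tRNA, gave -0.10 (-0.41 to 0.21). Of the latter 3, each interval included 0. With mTOR-/- replicate 2 left out, Eif2ak2 read -0.02 and Eif2ak4 0.01, so neither sign held.

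For comparison, 36 genes outside the family that act on the same steps were tested, and 1 was called. This was Gcn1l1, whose protein is needed to activate GCN2, at 2469, 2749 and 3292 counts in mTOR-/- and 1229, 1109 and 1070 in WT (log2 fold change 1.48, SE 0.11, edgeR adjusted p = 0.000314). Its partner Eif2ak4 is the kinase given just above at -0.10. The other lists held 9 genes of termination and recycling with 0 called, and 14 genes of mRNA binding and helicase partners with 0 called. The list of 13 kinases, phosphatases and their partners held Gcn1l1 and had a median of 0.15.

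The factors of start codon choice and subunit joining (eIF1, eIF1A, eIF5, eIF5B and eIF6) held 8 members and 0 calls, with a median log2 fold change of -0.05. Eif1ax, the X-linked eIF1A gene, had the smallest p of the group and read 53.0, 62.1 and 38.9 CPM in mTOR-/- against 71.4, 64.6 and 62.7 in WT. Its groups did not overlap, and its log2 fold change was -0.37 (SE 0.17, edgeR adjusted p = 0.239), or -0.21 without mTOR-/- replicate 3. Eif1b, next in the order of p, gave -0.17 (edgeR adjusted p = 0.526). Eif5, the GTPase activator of eIF2, gave -0.05 with an interval of -0.25 to 0.14.

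The eIF3 complex is the large scaffold on the small subunit, and 13 of its 14 member genes lay below 0, with a median of -0.23. By edgeR 0 were called and 5 were lower at an unadjusted p under 0.05, as were 9.52% of all genes. DESeq2 called 1, Eif3h. In 6 of the 14 (42.9%), all mTOR-/- libraries were below all WT libraries, as in 13.9% of all genes. Eif3h had the smallest p, at 193, 209 and 154 CPM in mTOR-/- and 245, 244 and 239 in WT. Its log2 fold change was -0.39 (SE 0.12, edgeR adjusted p = 0.103). Eif3m read 119, 128 and 96.4 CPM against 146, 139 and 153 (log2 fold change -0.35, SE 0.12, edgeR adjusted p = 0.134). Eif3j2, the only eIF3 gene above 0, gave 0.35 with overlapping groups (edgeR adjusted p = 0.329).

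The low values of the eIF3 genes were not even over the mTOR-/- libraries. Against the WT mean, the median eIF3 gene stood at -0.23 in replicate 1, -0.07 in replicate 2 and -0.54 in replicate 3 on the log2 CPM scale. In the WT libraries these medians lay between -0.01 and 0.01. Replicate 2 was thus near WT, and replicate 3 was the lowest.

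The cap-binding, scaffold and helicase factors of the eIF4 group lay on both sides of 0, with 5 of 11 above and 6 below. Eif4a2 (ENSMUSG00000022884), a DEAD-box helicase of eIF4F, read 913, 812 and 1097 CPM in mTOR-/- and 630.5, 706 and 616 in WT. The groups did not overlap, and the means were 941 ± 145 and 651 ± 48.4 CPM (SD, n = 3). The log2 fold change was 0.53 (SE 0.12, edgeR adjusted p = 0.0491), at the edge of the threshold. The call was held in 7 of 14 alternatives, with adjusted p from 0.0021 to 0.221, and of the 6 libraries only mTOR-/- replicate 2 could be left out without losing it. Its log2 fold change ran from 0.40 to 0.62 over the alternatives. Fits with a library left out called 1.35% to 4.0% of all genes, against 4.04% with all libraries. In the annotation the gene hosts 5 snoRNAs in its span and overlaps Rfc4 on the opposite strand (Rfc4 log2 fold change -0.23, edgeR adjusted p = 0.533). The strand setting of the counting is not given in the sources used here.

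Eif4a1, the other eIF4A helicase, cannot be read alone. Its pseudogene Eif4a-ps4 (chr1:60703932-60705149) is 99.92% identical over 1218 bases and held 55892 counts over the 6 libraries, 70.5% of the counts of both. Eif4a1 alone gave 0.22 (edgeR adjusted p = 0.387). With the copy added it read 955, 975 and 947 CPM in mTOR-/- and 1025, 998 and 968 in WT, a log2 fold change of -0.06 (SE 0.09, edgeR adjusted p = 0.756). The sign of Eif4a1 therefore depended on where its reads were placed. For 5 other members with near-identical copies (Eif1, Eif4a3, Eef1b2, Eif5a and Eif3e) the copies held at most 1.22% of the counts. Copies were sought only among genes outside the members. The placement of reads between members, such as Eif3j1 and Eif3j2, was not checked.

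With the copy counted in, Eif4a1 made up 51.1%, 54.6% and 46.3% of the reads of both helicases in mTOR-/-, and 61.9%, 58.6% and 61.1% in WT. The groups did not overlap (50.7% ± 4.14 against 60.5% ± 1.75, SD, n = 3, two-sided exact permutation p = 0.1, which is the lowest value that 6 libraries in equal groups allow). These are shares of counts and are not divided by length, so they compare libraries and not the helicases with each other.

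**Figure D3:**
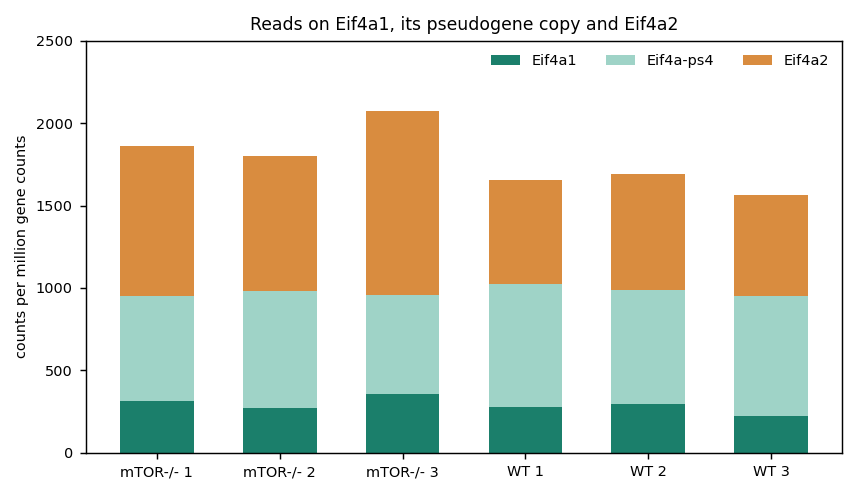
The vertical axis gives CPM of gene counts, without TMM factors, stacked for Eif4a1, its pseudogene copy Eif4a-ps4 and Eif4a2 in each of the 6 libraries. The Eif4a2 part is taller in each mTOR-/- library than in each WT library, while Eif4a1 and the copy together change little.

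Eif4e encodes the protein that binds the mRNA cap. It read 47.7, 109 and 56.8 CPM in mTOR-/- and 112, 109.6 and 111 in WT. Replicates 1 and 3 were far below WT, and replicate 2 was at the WT level, just below the lowest WT library. The log2 fold change was -0.64 (SE 0.26, edgeR adjusted p = 0.202). Without mTOR-/- replicate 2 it was -1.10 (edgeR adjusted p = 0.00497), so 1 library decided this call, and without replicate 1 it was -0.42. The WT libraries spread by only 1.23 CPM (SD), and the mTOR-/- libraries by 33.3.

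Eif4e3, a cap-binding relative of eIF4E, was higher in every mTOR-/- library, at 46.5, 43.8 and 43.5 CPM against 37.0, 29.9 and 32.7. Its log2 fold change of 0.43 (SE 0.13) had an edgeR adjusted p of 0.1. In the annotation it lies within the span of the low Gm20696. Eif4g3, a scaffold paralog, gave 0.35 (edgeR adjusted p = 0.136), Eif4g1 gave -0.11 and Eif4g2 -0.17. The helicase cofactor Eif4b gave -0.17 and was lower in each mTOR-/- library (edgeR adjusted p = 0.355).

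The proteins that hold eIF4E back are direct mTOR substrates, and none of their genes was called. Eif4ebp1 (4E-BP1) read 95.1, 101 and 89.6 CPM in mTOR-/- and 115, 105 and 111 in WT, with no overlap. Its log2 fold change was -0.21 (95% interval -0.42 to 0.00, edgeR adjusted p = 0.236). Eif4ebp2 read 65.0, 70.9 and 53.7 CPM against 64.2, 52.7 and 58.8, a log2 fold change of 0.11 (-0.19 to 0.41, edgeR adjusted p = 0.684) that ran from 0.01 to 0.21 with each library left out. Eif4ebp3 was under the minimum, at 1, 9 and 18 counts in mTOR-/- and 6, 2 and 2 in WT. Eif4enif1, the eIF4E transporter, gave -0.09 (edgeR adjusted p = 0.605).

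Shares within paralog families were read from the deposited FPKM. Of the 3 binding proteins, Eif4ebp1 made up 81.8%, 80.8% and 82.3% in mTOR-/- and 84.3%, 85.9% and 85.2% in WT. Of the cap-binding genes, Eif4e made up 21.0%, 38.7% and 25.4% in mTOR-/- and 41.3%, 45.2% and 42.3% in WT. In both families the groups did not overlap (two-sided exact permutation p = 0.1, or 0.2 after adjustment over 6 families). Eif4g1 made up 34.1% ± 2.59 of its family in mTOR-/- and 34.7% ± 0.217 in WT (SD, n = 3, exact permutation p = 0.7). Eef1a1 made up 100% of the eEF1A pair in each library, since Eef1a2 was at 0.

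The genes taken here as elongation factors, by gene name, are Eef1a1, Eef1b2, Eef1d, Eef1e1, Eef1g and Eef2. They include the members with the most counts, Eef1a1 and Eef2, and lay below 0 in 6 of 6, with a median of -0.25. By edgeR 0 were called, with 2 lower at an unadjusted p under 0.05, as were 9.52% of all genes. These were Eef1a1 and Eef1g, which are also the 2 that DESeq2 called. Eef1a1 (ENSMUSG00000037742), which carries aminoacyl tRNA to the ribosome, read 7947, 8811 and 5884 CPM in mTOR-/- and 9889, 10200.0 and 10670.0 in WT. No libraries overlapped, and the log2 fold change was -0.44 (SE 0.16, edgeR adjusted p = 0.165). With DESeq2 the adjusted p was 0.0325. Eef1g, a subunit of the exchange factor of eEF1A, read 334, 320.1 and 262 CPM against 370.2, 406 and 403 (log2 fold change -0.36, SE 0.11, edgeR adjusted p = 0.101, DESeq2 adjusted p = 0.0389).

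Eef2, the translocase, read 2535, 3129 and 1878 CPM in mTOR-/- and 2968, 2918 and 3139 in WT. Replicate 2 of mTOR-/- lay within WT, and replicates 1 and 3 lay below it. The log2 fold change was -0.26 (95% interval -0.64 to 0.12, edgeR adjusted p = 0.420). It was -0.46 without mTOR-/- replicate 2 and -0.09 without replicate 3. Its kinase Eef2k read 87.4, 83.9 and 77.3 CPM against 93.8, 85.4 and 93.2, a log2 fold change of -0.13 (-0.36 to 0.09, edgeR adjusted p = 0.481). The methyltransferase gene Eef2kmt gave -0.14 (edgeR adjusted p = 0.663).

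On the deposited FPKM, a level per length, Eef1a1 was first and Eef2 second among the members in WT, at 1818 ± 56.6 and 964 ± 32.6 (SD, n = 3). Both kept these ranks when counts were divided by the longest coding transcript. Other ranks were less firm, since the length behind the deposited FPKM was 0.40 to 5.94 times that transcript. Eif4a2 ranked 24 by FPKM and 6 by transcript length. At the other end, Eif5a2, the paralog of eIF5A, read 22, 19 and 33 counts in mTOR-/- and 33, 32 and 27 in WT and was the lowest member inside the minimum. Its log2 fold change of -0.16 had an interval of -1.16 to 0.85, which included a 2-fold fall but not a 2-fold rise. Eif5a itself, which relieves stalled ribosomes, gave 0.05 (-0.24 to 0.33).

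**Figure D4:**
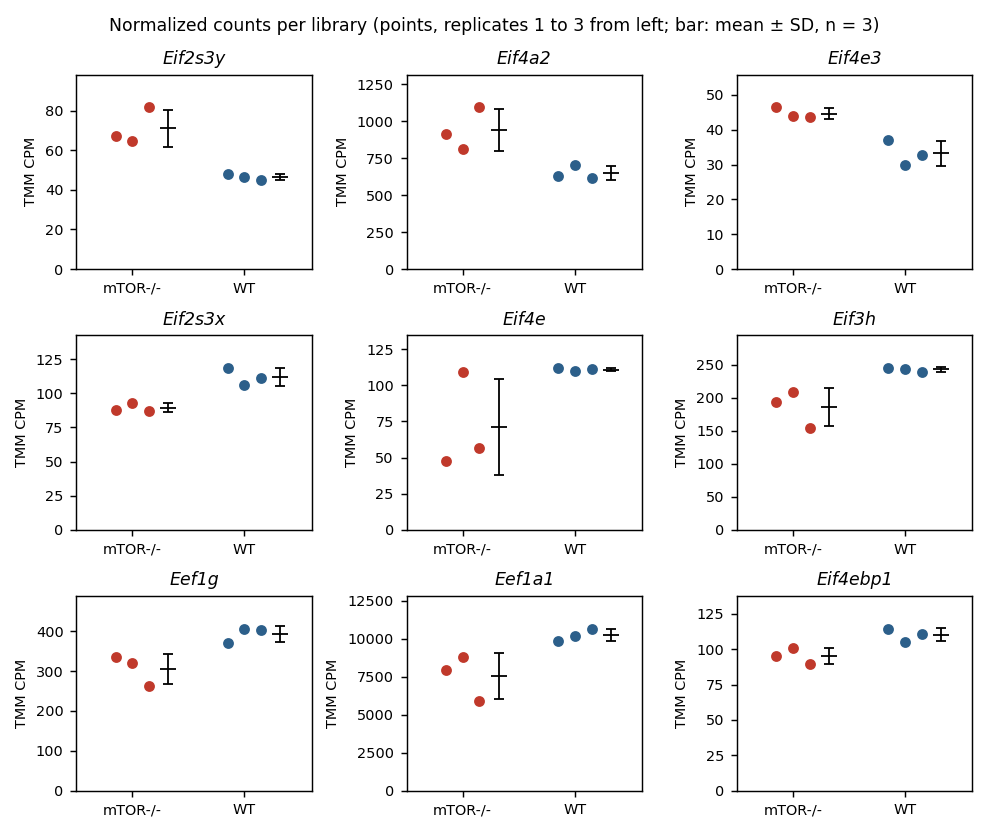
Each panel gives TMM-normalized CPM from 0 for 1 member, with a point per library (red mTOR-/-, blue WT, replicates 1 to 3 from left) and the mean ± SD (n = 3) as a bar beside them. Eif2s3y, Eif4a2 and Eif4e3 are higher in each mTOR-/- library and the other 6 lower, and Eif4e in mTOR-/- replicate 2 stands at the WT level while replicates 1 and 3 are far below.

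Taken as a share of all gene counts, the 61 members made up 2.22%, 2.44% and 1.90% in mTOR-/- and 2.54%, 2.53% and 2.60% in WT (two-sided exact permutation p = 0.1). The 6 elongation factors made up 1.12%, 1.28% and 0.863% against 1.38%, 1.39% and 1.45%, with no overlap (exact permutation p = 0.1). The 53 initiation factors and their regulators made up 1.08%, 1.15% and 1.03% against 1.15%, 1.12% and 1.14% and overlapped (exact permutation p = 0.3). Eef1a1 and Eef2 carried most of the difference: without them the shares were 1.18% ± 0.0613 and 1.24% ± 0.0138 (SD, n = 3, exact permutation p = 0.2). Replicate 3 weighed on these values: without it the difference (mTOR-/- minus WT) went from -0.367 to -0.225 percentage points for all members, from -0.317 to -0.203 for the elongation factors and from -0.0499 to -0.0216 for the initiation factors. Without replicate 2 the last was -0.0805.

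The 9 members long known as TOP mRNAs (Eef1a1, Eef1b2, Eef1d, Eef1g, Eef2, Eif3e, Eif3f, Eif3h and Eif4b) lay below 0 in 9 of 9, with a median of -0.26. The other 52 members had a median of -0.10 and 36 below 0. In 5 of the 9 all mTOR-/- libraries were below all WT libraries, as in 13.9% of all genes. By edgeR 0 were called and 4 were lower at an unadjusted p under 0.05, as were 9.52% of all genes, while DESeq2 called Eef1a1, Eef1g and Eif3h. Eif3f, whose start window holds a long tract, read 323, 332 and 236 CPM in mTOR-/- and 353, 384 and 422 in WT (log2 fold change -0.38, SE 0.14, edgeR adjusted p = 0.159). Eef1b2, whose window holds none, gave -0.12 with overlapping groups (edgeR adjusted p = 0.458). The 10 members with a tract at the RefSeq start had a median of -0.14, and the 39 with none also -0.14. Of the 5 known TOP members with a window only 2 held a tract. This split therefore does not separate TOP mRNAs from the others, and no conclusion on the motif is drawn from it. The 81 cytosolic ribosomal protein genes, the largest group of TOP mRNAs, had a median of -0.23, with 0 called higher and 7 lower. Whether the members differed from these genes was not tested.

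The lower values were spread unevenly over the mTOR-/- libraries. Against the mean of WT, the median member stood at -0.15 in replicate 1, -0.02 in replicate 2 and -0.23 in replicate 3 on the log2 CPM scale, while the median of all genes was 0.01 in each. For the TOP members the medians were -0.25, -0.21 and -0.58, with 88.9% below 0 in replicate 2. For the ribosomal protein genes they were -0.24, -0.13 and -0.39. In WT the medians of the members lay between -0.01 and 0.03. Replicate 3 was the lowest of the 6 libraries in 32 of 61 members, against 27.7% of all genes. Without it, 43 of 61 members were below 0.

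**Figure D5:**
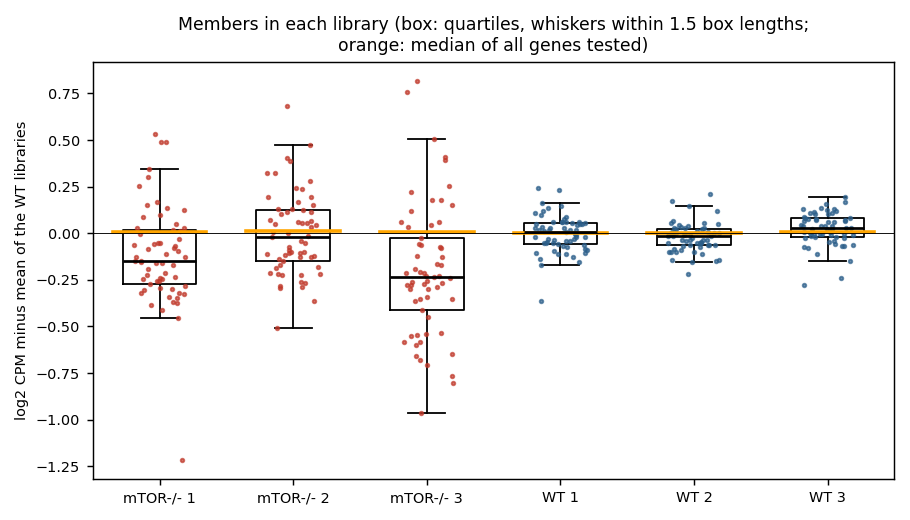
The vertical axis gives each member's log2 CPM minus its mean in the WT libraries, with a point per member (61 per library), boxes for the quartiles, and an orange line for the median of all genes tested. The boxes of mTOR-/- replicates 1 and 3 lie lower than those of the 3 WT libraries, replicate 2 is centred near 0, and the point below -1 in replicate 1 is Eif4e.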

How the data were processed

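Per the labels, total RNA of sorted cells was made into Illumina TruSeq libraries. The authors deposited a table of raw gene counts and FPKM values for each library. Their methods name Bowtie2 on mm10, HTSeq and DESeq2, while the submitters' processing notes name HISAT2 2.0.4, StringTie 1.3.0, GRCm38.p4 and mm9, so the aligner and the strand setting behind the counts are unsettled. Of 36 value columns, 24 repeated the same values and were not used. Columns of the authors' own comparison (mean FPKM, log2 ratio, p and q) were not used.

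Counts were analysed in R 4.3.3 with edgeR 4.0.16 and limma 3.58.1: filterByExpr (minimum count 10, minimum total 15), TMM factors (0.986 to 1.01), and the quasi-likelihood F test without a block, with Benjamini-Hochberg adjustment over 12537 genes. The biological coefficient of variation was 19%. The scripts were tested on simulated data. CPM are TMM-normalized, with a prior count of 2 on the log scale. FPKM served for levels and paralog shares. Alternatives were DESeq2 1.42.0, RLE and upper-quartile factors, library totals alone, no filter, at least 10 counts in every library, each library left out, and the replicate number as a block. Near-identical copies (blastn 2.17.0, at least 95% identity over 200 bases and 50% of the copy's transcript, GENCODE M21) were added to their member as an alternative chosen after seeing the data, as were shares per kb of the longest coding transcript.

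Groups and replicate numbers come from the labels. The members and lists were chosen with earlier results of these data known. Named with values are the members called, the 2 with the smallest p in each role, and Eif4ebp1 to Eif4ebp3, Eif4e, Eif2ak1 to Eif2ak4, Eef2k, Eef2, Eef1a1, Eif2s3x and Eif2s3y, with called genes of the comparison lists. Members named beyond these were chosen after their values were seen. The smallest p of an exact test of 3 libraries against 3 is 0.1. At the depths given, 3 counts equal 0.203 to 0.244 CPM.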

Additional observations from a re-analysis of the deposited data

Results flagged for a closer look

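Among the pseudogene names left out of the family, Eif1-ps1 and Eif5al3-ps had counts that did not overlap between the groups but were not called. Eif1-ps1 was lower in mTOR-/- (log2 fold change -0.75, SE 0.35, edgeR adjusted p = 0.26). Eif5al3-ps had 39, 36 and 45 counts in mTOR-/- and 11, 14 and 13 in WT, a log2 fold change of 1.81 (SE 0.45, edgeR adjusted p = 0.0584). It stood out as a signal above WT outside the members, and the report used it only where copies were added to Eif5a. It is 97.2% identical to Eif5a over 434 bases, and its counts were 0.500% of the counts of both, while Eif5a gave 0.05. Whether the reads stem from the pseudogene or from Eif5a was not tested.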

How the results depend on the processing

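The median log2 fold change of the members stayed below 0 in each of 14 alternatives, and 43 to 49 members were below 0. Of 364 values of named genes under the alternatives, 342 kept their direction and side of the threshold, 12 lost their call, 5 gained one and 5 changed sign. Members called higher numbered 2, but 1 with RLE factors (Eif2s3y), 0 with the replicate block, and 0 to 2 with each library left out: 0 without mTOR-/- replicate 1 or without any one WT library, and 1 without mTOR-/- replicate 3. Of all genes tested, 4.04% were called in the main fit, 4.0% with RLE factors, 2.23% with the block and 3.63% without mTOR-/- replicate 3. The share was 4.0% without mTOR-/- replicate 2, 2.24% without replicate 1, and 1.51%, 1.36% and 1.35% without WT replicates 1, 2 and 3. With each library left out, the log2 fold change of Eif2s3y ran from 0.50 to 0.67 and that of Eif4a2 from 0.40 to 0.62. Eif2s3y was called in 9 of 14 alternatives (adjusted p 0.000781 to 0.131). Members called lower numbered 4 with DESeq2 and 0 to 1 with each library left out. The 1 is Eif4e without mTOR-/- replicate 2, which also makes the members past a fold of 2 run from 0 to 1. Members whose groups do not overlap ran from 25 to 34 with each library left out. Smaller groups overlap less often in any gene, and the share over all genes was not computed for them. These counts therefore do not show a wider separation of the members. Signs were not held by Eif5a (-0.072 without mTOR-/- replicate 2, -0.01 without WT replicate 1), Eif2ak2 (-0.0184 without mTOR-/- replicate 2) and Eif2ak4 (0.0099 without the same library). With each library left out, Eif5a ran from -0.072 to 0.1649, Eif2ak2 from -0.0184 to 0.1891 and Eif2ak4 from -0.2636 to 0.0099. Also with each library left out, values under the threshold moved by over 1.5 times for Eef2kmt (-0.29 to -0.05), Eif1b (-0.25 to -0.07), Eif2b4 (0.13 to 0.29), Eif5a2 (-0.41 to -0.00) and Eif4enif1 (-0.13 to -0.05). Eif4a1 turned to -0.056 with its copy added. The Eif4g1 share difference (mTOR-/- minus WT) ran from -2.018 to 0.470 percentage points with each library left out, above 0 without mTOR-/- replicate 1. Beyond the copies added and the libraries left out, the causes were not tested. Replicate numbers did not pair the libraries: same-numbered libraries had correlations of their deviations of -0.0764, -0.0252 and -0.0608, and no mTOR-/- library correlated best with its own number. Eif5a2 is limited by depth.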
